A study of Mus musculus with 11 samples.

Results

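The non-fibrillar collagens VI, VIII, XII, XIV, XV, XVI and XVIII were followed through 10 genes, Col6a1, Col6a2, Col6a3, Col8a1, Col8a2, Col12a1, Col14a1, Col15a1, Col16a1 and Col18a1, in collagen-producing cells of the mouse spinal cord. The genes were chosen by name, as 10 of the 37991 genes in the count table, and each matched 1 row of it. All 10 passed the filter on low counts in both fits, which tested 15972 genes among the sorted groups and 16562 genes between sorted control and whole cord.

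The study sequenced RNA of 11 libraries in 4 groups. Cells positive for green fluorescent protein (GFP) were isolated by flow cytometry from dissociated cords of C57BL/6 Col1a1GFP mice, a reporter strain in which GFP stands under the control of the collagen I gene Col1a1, so that any cell using that gene may enter the sort. The sorted groups were healthy mice (sorted control, n = 3) and mice with EAE (experimental autoimmune encephalomyelitis, widely used to model multiple sclerosis), taken 5 days (D5, n = 3) and 10 days (D10, n = 3) from the onset of symptoms. Between 2 and 3 cords were pooled for a sorted library, and each pool is counted as a biological replicate in the design text. Whole cord (n = 2) was homogenate of 1 cord each from healthy C57BL/6 mice without the reporter. The labels and design text state neither how EAE was induced nor how old the mice were.

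Collagen VI is built from heterotrimers of the alpha 1, alpha 2 and alpha 3 chains, which assemble into beaded microfilaments around cells and next to basement membranes. Collagen VIII is a short-chain, network-forming collagen of vessel walls, collagens XII, XIV and XVI belong to the fibril-associated collagens with interrupted triple helices (FACIT), which sit on or near the surface of collagen fibrils, and collagens XV and XVIII are the multiplexins, proteoglycan cores of the basement membrane zone. In the central nervous system such molecules are found mainly in the meninges and around blood vessels, and the C-terminal fragment of collagen XVIII, endostatin, is known as an inhibitor of vessel growth.

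Chains of collagen VIII, and likewise the multiplexins, moved in opposite directions at D5, and the promoters of these 4 genes are therefore shown. The sequences are those of RefSeq on GRCm38.p6, from 250 bases before to 50 bases after the annotated start, written 5′ to 3′ on the strand of the gene. The table held promoters for 8 of the 10 genes, and Col12a1 and Col14a1 had no entry. Capitals mark matches, on either strand, to any of 6 motifs. The AP-1 site was TGANTCA and the SMAD box CAGAC. The TATA box was TATAAA and the GC box GGGCGG. The TEAD site was GGAATG and the STAT site TTCNNNGAA.
Col8a1, chr16:57754688-57754987, minus strand: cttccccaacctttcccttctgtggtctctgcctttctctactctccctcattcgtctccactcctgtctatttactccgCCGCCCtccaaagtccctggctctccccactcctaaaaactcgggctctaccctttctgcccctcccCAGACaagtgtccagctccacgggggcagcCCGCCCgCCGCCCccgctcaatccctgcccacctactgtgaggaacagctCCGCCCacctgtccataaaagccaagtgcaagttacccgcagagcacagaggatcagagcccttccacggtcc
Col8a2, chr4:126286544-126286843, plus strand: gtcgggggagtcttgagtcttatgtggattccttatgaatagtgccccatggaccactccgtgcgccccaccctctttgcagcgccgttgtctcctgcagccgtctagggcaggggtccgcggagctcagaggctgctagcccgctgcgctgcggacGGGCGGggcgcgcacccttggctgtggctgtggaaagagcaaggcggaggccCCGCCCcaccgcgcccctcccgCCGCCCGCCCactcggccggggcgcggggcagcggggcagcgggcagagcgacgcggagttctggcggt
Col15a1, chr4:47207762-47208061, plus strand: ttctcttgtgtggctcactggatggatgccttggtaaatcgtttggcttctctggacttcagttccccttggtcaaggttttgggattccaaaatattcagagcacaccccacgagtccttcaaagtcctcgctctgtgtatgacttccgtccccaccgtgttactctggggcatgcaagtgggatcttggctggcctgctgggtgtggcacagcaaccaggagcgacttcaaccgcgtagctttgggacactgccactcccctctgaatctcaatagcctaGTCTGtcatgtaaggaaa
Col18a1, chr10:77166481-77166780, minus strand: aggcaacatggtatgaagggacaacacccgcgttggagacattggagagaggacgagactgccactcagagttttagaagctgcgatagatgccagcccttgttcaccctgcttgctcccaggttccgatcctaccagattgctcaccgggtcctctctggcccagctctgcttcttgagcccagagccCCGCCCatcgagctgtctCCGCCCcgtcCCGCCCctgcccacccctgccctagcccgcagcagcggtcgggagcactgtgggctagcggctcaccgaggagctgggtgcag
Col18a1, second start, chr10:77113656-77113955, minus strand: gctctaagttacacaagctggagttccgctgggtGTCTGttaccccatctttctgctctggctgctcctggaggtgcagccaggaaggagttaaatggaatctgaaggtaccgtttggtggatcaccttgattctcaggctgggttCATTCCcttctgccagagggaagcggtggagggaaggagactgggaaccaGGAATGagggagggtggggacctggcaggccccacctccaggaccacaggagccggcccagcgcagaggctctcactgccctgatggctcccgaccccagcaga

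The GC box was matched 4 times in each of the Col8a1 and Col8a2 promoters and 3 times at the first Col18a1 start, but in neither the Col15a1 promoter nor the second Col18a1 start. In Col8a2 the matches that begin at bases -19 and -15, counted from the start as base 1 with no base 0, overlap by 2 letters. The GC box was held by 35.7% of the 32851 promoters in the table. The SMAD box, held by 49.6% of promoters, was matched once in Col8a1, once in Col15a1 and once at the second Col18a1 start, which also held 2 matches to the TEAD site, found in 14.7% of promoters. No match to the AP-1 site (7.81% of promoters), the TATA box (13.6%) or the STAT site (8.30%) lay in these 5 windows. In the same table Col6a1, Col6a2 and Col18a1 lie on chromosome 10 and Col8a2, Col15a1 and Col16a1 on chromosome 4. By composition, the Col8a2 window held 71.7% G or C and 32 CpG pairs, the first Col18a1 window 63.3% and 16, the Col8a1 window 60.3% and 12, the second Col18a1 window 59.7% and 6, and the Col15a1 window 52.3% and 8. A match describes letters only, and the gene counts do not tell the starts of Col18a1 apart.

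Library totals ran from 7123291 to 12238751 counts. Along principal component 1 of the sorted groups (48.8% of the variance over 9 libraries), sorted control lay between -81.6 and -78.0, D5 between 51.9 and 59.2, and D10 between 3.39 (replicate 2) and 53.8 (replicate 3). D10 replicate 3 thus stood among the D5 libraries on this axis, and changes called at D10 against sorted control are also given without it. The 10 collagen genes together took 0.663 to 0.810% of counts in sorted control, 0.657 to 0.906% at D5, 0.729 to 1.06% at D10, and 0.00738 and 0.0133% in whole cord. Levels are CPM, the counts of a gene brought to a common library total with TMM scaling, with the replicates of a group in the order of their numbers.

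At D5, 4 of the 10 genes rose above sorted control (13.2% of all genes tested did so) and 2 fell (10.7% of all genes). Col6a3, Col8a1, Col14a1 and Col18a1 were higher, and Col8a2 and Col15a1 were lower. With or without a call, every D5 library lay above every control library in 5 genes (22.8% of all genes tested), those 4 and Col16a1, and below in 4 (19.1%), those 2, Col6a1 and Col6a2. At D10, 4 genes, Col6a3, Col8a1, Col16a1 and Col18a1, were higher than in sorted control (8.38% of all genes), and 1, Col8a2, was lower (4.99% of all genes). At D10 the libraries lay wholly above control in the same 4 genes that were called (17.0% of all genes) and wholly below in 2 (14.1%), Col8a2 and the uncalled Col15a1. D5 and D10 were set against the same control libraries, so their changes share that source of error. The median log2 fold change of the 10 genes was 0.08 at D5 and 0.26 at D10, against 0.00 and 0.01 over all genes tested. In bulk RNA of a sort, fewer cells of a kind and less RNA per cell cannot be told apart.

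**Figure D1:**
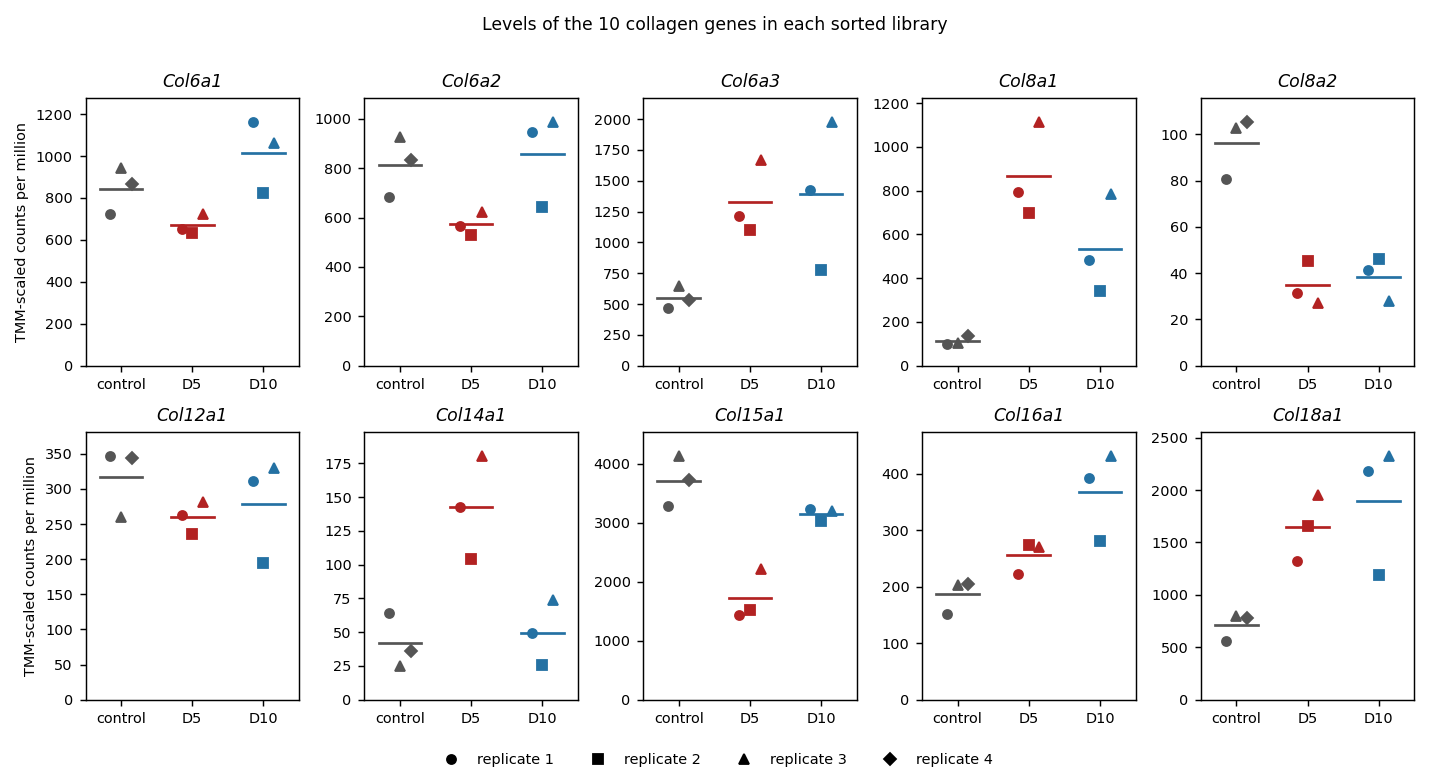
CPM of each of the 10 collagen genes (vertical axes, from 0) in the 9 sorted libraries, grouped as control, D5 and D10, with one symbol per replicate number and a bar at the mean of each group. Col8a1 lies between 700 and 1113 CPM at D5, above the control libraries at 99.4 to 137 CPM, and Col15a1 lies between 1431 and 2217 CPM at D5, below the control libraries at 3274 to 4122 CPM.

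Between the time points no member passed the threshold in either direction in edgeR, where 0.0751% of all genes tested were called higher and 0.0563% lower at D10 than at D5. At an unadjusted p under 0.05, 4 members were higher at D10 than at D5 (Col6a1, Col6a2, Col15a1 and Col16a1; 4.67% of all genes) and 2 were lower (Col8a1 and Col14a1; 3.8% of all genes). DESeq2 called 2 members higher (Col6a1 and Col15a1) and none lower, limma voom 1 higher (Col15a1) and none lower. Without D10 replicate 3, edgeR called 1 member higher, Col15a1 (log2 fold change 0.87, adjusted p = 0.04), and 2 lower, Col8a1 (-1.07, adjusted p = 0.0461) and Col14a1 (-1.91, adjusted p = 0.0377), among 218 genes called in all.

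**Figure D2:**
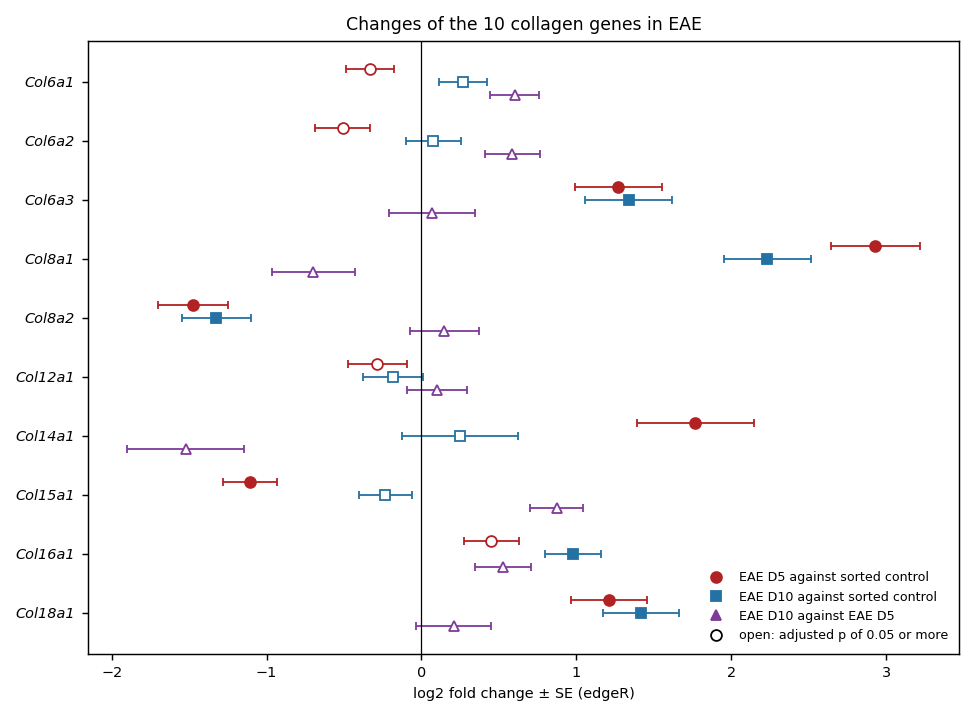
Log2 fold change with its standard error (horizontal axis, edgeR) of each gene for D5 against sorted control (circles), D10 against sorted control (squares) and D10 against D5 (triangles), filled where the adjusted p was under 0.05. Col8a1 has the highest values at both times (2.93 at D5 and 2.23 at D10), Col8a2 the lowest (-1.47 and -1.33), and no triangle is filled.

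Among the collagen VI genes followed here, that of the alpha 3 chain rose in EAE, while Col6a1 and Col6a2 did not pass the test. The further collagen VI genes Col6a4, Col6a5 and Col6a6 were counted with the other non-fibrillar chains. Col6a3, which encodes the long alpha 3 chain, had 470, 647 and 535 CPM in sorted control, 1212, 1104 and 1668 CPM at D5, and 1427, 776.5 and 1974 CPM at D10. Every EAE library stood above every control library, with D10 replicate 2 the nearest to them. At D5 Col6a3 averaged 1328 ± 300 CPM, against 551 ± 89.5 CPM in sorted control (SD, n = 3 each), which is 1.27 ± 0.28 on the log2 scale (fold change with its SE; adjusted p = 0.00614). At D10 the mean was 1393 ± 600 CPM and the log2 fold change 1.34 ± 0.28 (adjusted p = 0.00865), or 0.99 without D10 replicate 3 (adjusted p = 0.0334).

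Col6a1, the alpha 1 chain gene, had 722, 942.5 and 866.5 CPM in sorted control, 653, 635 and 721.5 CPM at D5, and 1161, 825 and 1062 CPM at D10. The D5 libraries all lay below the control libraries, by less than 1 CPM at the nearest pair, and the D10 libraries overlapped with control. The log2 fold change was -0.33 ± 0.16 at D5 (adjusted p = 0.144) and 0.27 ± 0.16 at D10 (adjusted p = 0.293). Col6a2, the alpha 2 chain gene, had 682, 926 and 835 CPM in sorted control, 566, 527 and 623 CPM at D5, and 946, 644.5 and 986 CPM at D10. The D5 libraries again stood below all control libraries, with a log2 fold change of -0.51 ± 0.18 that missed the threshold (adjusted p = 0.054). It passed in DESeq2 (adjusted p = 0.0261), in limma voom (0.0445), with no filter on low counts (0.0341), without sorted control replicate 1 (log2 fold change -0.63, 0.037) and with D10 replicate 3 left out of the fit (0.0355). At D10 the log2 fold change of Col6a2 was 0.08 ± 0.18 (adjusted p = 0.829).

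Counts of Col6a3 relative to Col6a1, per kilobase of transcript, were 0.264, 0.279 and 0.251 in sorted control, 0.753, 0.705 and 0.938 at D5, and 0.499, 0.382 and 0.754 at D10. All 6 EAE libraries exceeded the control libraries, and the D10 libraries other than replicate 3 lay between control and D5. A ratio within a library needs no scaling, and the 3 groups differed in it by an exact permutation test over 1680 assignments of libraries to groups (p = 0.0107, adjusted p = 0.0214 over 8 pairs of genes). The adjusted p was 0.0571 without sorted control replicate 4 and 0.0143 without D10 replicate 3. The ratio of Col6a2 to Col6a1 was 0.981 to 1.02 in sorted control, 0.862 to 0.900 at D5 and 0.811 to 0.964 at D10 (exact permutation test, adjusted p = 0.0786). Without D10 replicate 3, whose ratio of 0.964 was the highest in EAE, the groups differed (adjusted p = 0.0143).

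The collagen VIII genes moved apart in EAE, with Col8a1 higher and Col8a2 lower at both times. Col8a1, the alpha 1 chain gene, whose promoter window held 4 GC boxes, had 99.4, 105.5 and 137 CPM in sorted control, 794, 700 and 1113 CPM at D5, and 482, 341 and 784 CPM at D10. No EAE library came near the control range, and the D5 range extended above that of D10 while overlapping with D10 replicate 3. The means were 869 ± 217 CPM at D5, 536 ± 226 CPM at D10 and 114 ± 20.2 CPM in sorted control (SD, n = 3 each). The fold over control was 7.62 at D5 (log2 2.93 ± 0.29, adjusted p = 6.59e-05) and 4.70 at D10 (log2 2.23 ± 0.28, adjusted p = 0.000591; without D10 replicate 3, log2 1.84, adjusted p = 0.000804).

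Col8a2, the alpha 2 chain gene, whose promoter window also held 4 GC boxes, had 80.7, 103 and 105 CPM in sorted control, 31.6, 45.2 and 27.2 CPM at D5, and 41.3, 45.9 and 28.0 CPM at D10. All 6 EAE libraries lay below all 3 control libraries. It was 2.78-fold lower at D5 (log2 -1.47 ± 0.23, adjusted p = 0.000701) and 2.50-fold lower at D10 (log2 -1.33 ± 0.22, adjusted p = 0.00281). Without D10 replicate 3 the D10 value was -1.15 (adjusted p = 0.00931). Counts of Col8a2 relative to Col8a1, per kilobase, were 0.957, 1.15 and 0.906 in sorted control, 0.0469, 0.0762 and 0.0288 at D5, and 0.101, 0.159 and 0.0421 at D10. The control libraries thus held the chains at near-equal levels per length, while in EAE Col8a1 exceeded Col8a2 in every library (exact permutation test over the 3 groups, adjusted p = 0.0214).

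**Figure D3:**
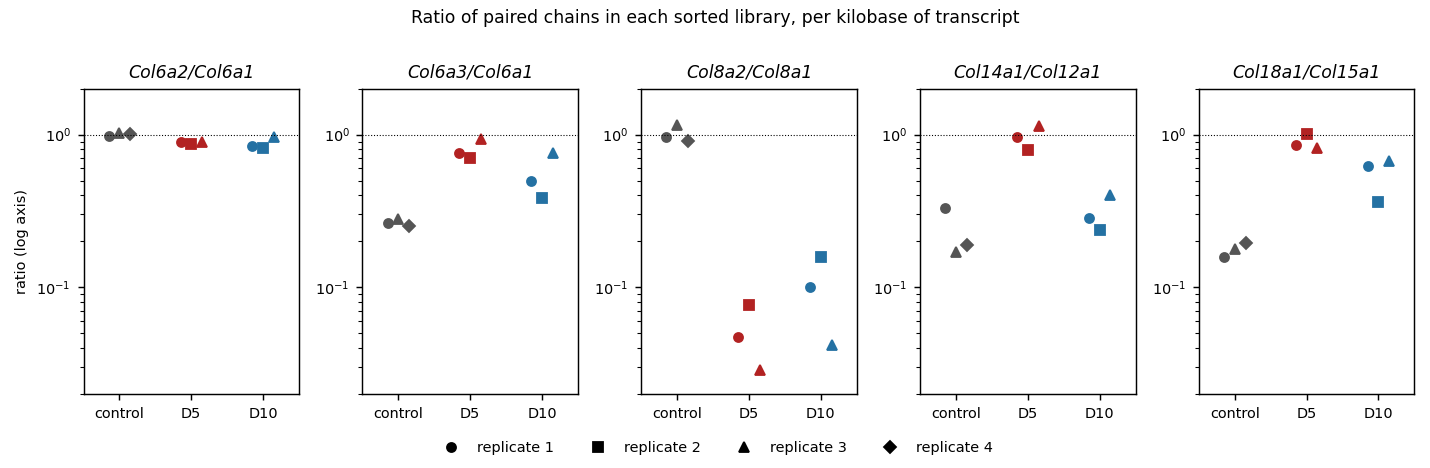
Ratio of 5 pairs of chains in each sorted library, per kilobase of transcript (vertical axes, log scale, the dotted line at equality), grouped as control, D5 and D10 with one symbol per replicate number. The Col8a2/Col8a1 ratio lies at 0.906 to 1.15 in control and at or below 0.159 in all EAE libraries, and the Col18a1/Col15a1 ratio lies at 0.157 to 0.194 in control and at 0.363 or above in EAE.

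Of the FACIT genes, Col14a1 rose at D5 and Col16a1 at D10, and Col12a1 passed the test at neither time. Col14a1, the gene of a chain that binds fibrils through the proteoglycan decorin, had 64.4, 24.9 and 36.3 CPM in sorted control, 142, 104.5 and 180 CPM at D5, and 49.3, 25.9 and 73.8 CPM at D10. All D5 libraries exceeded all other sorted libraries, while D10 and control overlapped. At D5 it was 3.41-fold above control (log2 1.77 ± 0.38, adjusted p = 0.00535). At D10 the log2 fold change was 0.25 ± 0.38 (adjusted p = 0.726), and -0.16 without D10 replicate 3 (adjusted p = 0.864). The difference between the times, log2 -1.52 ± 0.38 for D10 against D5, had an adjusted p of 0.189.

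Col16a1, which encodes the alpha 1 chain of the FACIT collagen XVI, had 152.5, 203 and 205 CPM in sorted control, 223, 274 and 269.5 CPM at D5, and 392, 281.5 and 430 CPM at D10. Its 3 groups did not overlap, in the order control, D5, D10. The log2 fold change was 0.45 ± 0.18 at D5 (adjusted p = 0.088) and 0.98 ± 0.18 at D10 (adjusted p = 0.00451), or 0.84 without D10 replicate 3 (adjusted p = 0.018). The D10 minus D5 difference was 0.53 ± 0.18 on the log2 scale (adjusted p = 0.427).

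Col12a1, the gene of the longest FACIT chain, had 346, 259 and 344 CPM in sorted control, 263, 236 and 281 CPM at D5, and 311, 195 and 330 CPM at D10. The groups overlapped, and the log2 fold changes were -0.28 ± 0.19 at D5 (adjusted p = 0.317) and -0.18 ± 0.19 at D10 (adjusted p = 0.593). Relative to Col12a1, Col14a1 stood at 0.332, 0.171 and 0.188 per kilobase in sorted control, 0.966, 0.790 and 1.14 at D5, and 0.283, 0.237 and 0.399 at D10. The D5 libraries stood at 0.790 or above and all others at 0.399 or below (exact permutation test over the 3 groups, adjusted p = 0.0214).

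Against Col1a1, the gene of the main fibril chain and of the reporter, Col12a1 stood at 0.0169 to 0.0345 per kilobase in sorted control, 0.00775 to 0.00978 at D5 and 0.00573 to 0.00901 at D10 (exact permutation test, adjusted p = 0.04; 0.0524 without D5 replicate 2). Col1a1 itself had 5167, 7906 and 8220 CPM in sorted control, 16370, 12410 and 18670 CPM at D5, and 17770, 11380 and 29670 CPM at D10. It rose at both times (log2 1.16 ± 0.30 at D5, adjusted p = 0.0148, and 1.47 ± 0.30 at D10, adjusted p = 0.00806, or 1.03 without D10 replicate 3, adjusted p = 0.0228), so the denominator of these ratios moved. Col14a1 and Col16a1 relative to Col1a1 each gave an adjusted p of 0.049 in the same test, and of up to 0.125 and 0.196 in that order when single libraries were left out.

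The multiplexins also moved apart, Col18a1 upwards at both times and Col15a1 downwards at D5. Col15a1, which encodes the chain of collagen XV and whose promoter window held no GC box, had 3274, 4122 and 3729 CPM in sorted control, 1431, 1518 and 2217 CPM at D5, and 3227, 3032 and 3199 CPM at D10. The D5 libraries lay below all others, and the D10 libraries lay closely beneath the lowest control library. Col15a1 was 2.15-fold lower at D5 than in sorted control (log2 -1.11 ± 0.17, adjusted p = 0.000831). At D10 the log2 fold change was -0.23 ± 0.17 (adjusted p = 0.415), and -0.25 without D10 replicate 3 (adjusted p = 0.489). D10 exceeded D5 by 0.87 ± 0.17 on the log2 scale (adjusted p = 0.0994). An antisense gene, Gm12426, shares 14 exon bases with Col15a1, and without a stated strand setting those reads cannot be assigned.

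Col18a1, the gene of the chain that yields endostatin, had 556, 794.5 and 781 CPM in sorted control, 1328, 1658 and 1949 CPM at D5, and 2185, 1190 and 2321 CPM at D10. Every EAE library exceeded every control library, and D5 and D10 overlapped. The fold over control was 2.32 at D5 (log2 1.21 ± 0.24, adjusted p = 0.00365) and 2.67 at D10 (log2 1.42 ± 0.24, adjusted p = 0.00326; without D10 replicate 3, log2 1.24, adjusted p = 0.0118). Per kilobase, Col18a1 stood at 0.157, 0.178 and 0.194 of Col15a1 in sorted control, 0.858, 1.01 and 0.813 at D5, and 0.626, 0.363 and 0.671 at D10. The 3 groups did not overlap in this ratio, and its permutation p of 0.00357 was the smallest that the design allows (exact test, adjusted p = 0.0214).

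**Figure D4:**
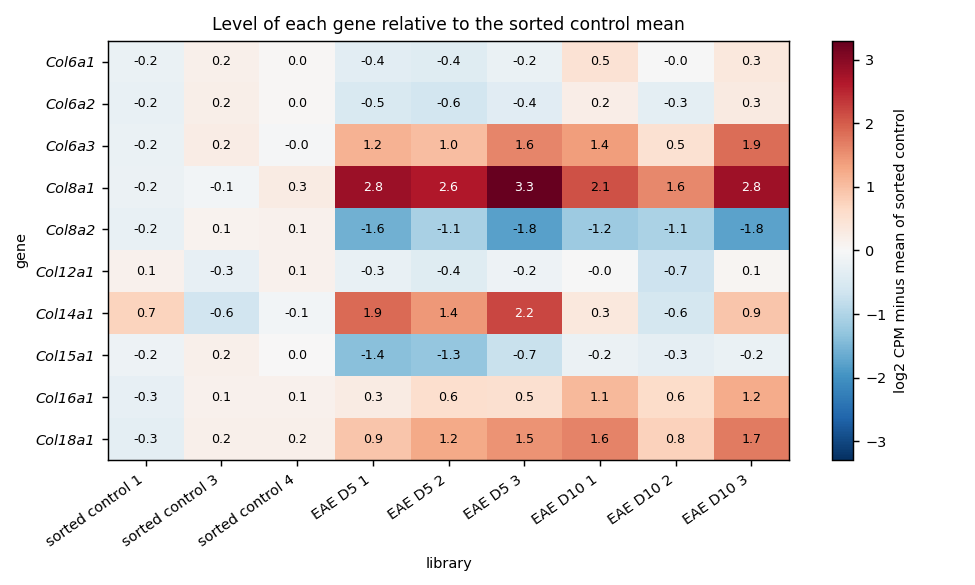
Log2 CPM of each collagen gene (rows) in each sorted library (columns) minus its mean over the sorted control, printed in each cell and coloured from blue (lower) to red (higher). D10 replicate 3 carries the highest D10 values of Col6a3, Col8a1, Col14a1, Col16a1 and Col18a1 and the lowest of Col8a2, while Col15a1 stands at -0.19, -0.28 and -0.21 in the D10 libraries.

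By level per kilobase of transcript, Col15a1 ranked first of the 10 genes in sorted control (717 ± 82.1 CPM per kilobase), at D5 (333 ± 83.3) and at D10 (610 ± 20.4; SD, n = 3 each). The next in sorted control were Col6a2 (206 ± 31.2) and Col6a1 (206 ± 27.3), which did not differ beyond their spread, followed by Col18a1 (127 ± 24.0), Col6a3 (54.5 ± 8.86), Col16a1 (35.9 ± 5.73), Col12a1 (27.5 ± 4.29), Col8a1 (22.3 ± 3.95), Col8a2 (22.2 ± 3.12) and Col14a1 (6.48 ± 3.15). The ranges of Col16a1 and Col12a1 overlapped, as did those of Col12a1, Col8a1 and Col8a2, while, apart from these and the pair of Col6a2 and Col6a1, neighbours in this order did not. At D5 Col18a1 stood second (294 ± 55.6) with a range that overlapped that of Col15a1, and Col8a1 (170 ± 42.4) stood next, beside Col6a1 (163 ± 11.1), Col6a2 (145 ± 12.2) and Col6a3 (131 ± 29.6). Col8a2 was last at D5 (8.01 ± 2.17). At D10 Col18a1 was second (339 ± 110), overlapping with Col6a1 (248 ± 42.0), and Col14a1 was last again (7.69 ± 3.71), within the spread of Col8a2 (8.86 ± 2.15).

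Other genes that followed the same course over the 9 sorted libraries were ranked by the root mean square (RMS) difference of centred log2 CPM among 9404 genes, as a description of likeness only. Col6a1 was followed most closely by Lamb1 (RMS 0.045), a laminin chain gene, and Nid1 (0.088), the gene of nidogen 1, while its own RMS deviation was 0.288. Col6a2 was nearest to Lamb1 (0.14) and Mageh1 (0.151) among the ranked genes, and nearer still to Col6a1 (0.11). Col6a3 was nearest to the fibrillar collagen gene Col3a1 (0.087) and Spon1 (0.113), against an own deviation of 0.698. The nearest genes to Col8a1, whose own deviation was 1.28, were Adam12 (0.226), a disintegrin metalloprotease gene, and Fblim1 (0.253).

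Col8a2 was nearest to Enpp5 (0.134) and Tns1 (0.16), and Col18a1 to Mmp11 (0.17), the gene of stromelysin 3, and Ccdc80 (0.184). Less close neighbours were found for Col15a1 with Hdhd2 (0.188) and Lrp1 (0.203), and for Col14a1 with Foxm1 (0.314) and Ncapd2 (0.413). For Col16a1 the nearest were 4930455C21Rik (0.148) and Ctsd (0.178), and for Col12a1, with an own deviation of only 0.261, Ccdc104 (0.121) and Ncapd3 (0.138).

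Genes on a list of receptors for collagens and other matrix proteins changed in both directions. For this list and the next ones, 13.2% of all genes tested were called higher and 10.7% lower at D5, and 8.38% and 4.99% at D10. Of 19 receptor genes tested, 6 were called higher and 4 lower at D5, and 4 higher and 3 lower at D10, with a median log2 fold change of 0.20 at D5 and 0.19 at D10, against 0.00 and 0.01 over all genes. Without D10 replicate 3 the D10 calls were 1 higher and 2 lower. Calls over all genes at D10 also fell without that library, from 2136 to 1045, which applies to the next lists and markers too. Itga1, the alpha 1 integrin chain of a collagen receptor, averaged 342 ± 71.3 CPM at D5, against 145 ± 37.5 CPM in sorted control (log2 1.24 ± 0.23, adjusted p = 0.00258), and was lower at D10 than at D5 (log2 -1.51 ± 0.24, adjusted p = 0.0314). That last call was lost without D5 replicate 1 (adjusted p = 0.0568), 2 (0.087) or 3 (0.171) and without D10 replicate 1 (0.203) or 2 (0.129). Itga3, the alpha 3 integrin chain of a laminin receptor, fell at D5 (log2 -1.67 ± 0.20, adjusted p = 0.000148). Gpc1, a glypican, rose at D5 (log2 1.47 ± 0.24, adjusted p = 0.00119) and at D10 (log2 1.53 ± 0.24, adjusted p = 0.00218; without D10 replicate 3, log2 1.20, adjusted p = 0.00539). Sdc4, a syndecan, rose at D10 (log2 0.88 ± 0.21, adjusted p = 0.0152), with an adjusted p of 0.0689 without D10 replicate 3 and 0.0504 without sorted control replicate 1.

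Of 22 genes of matrix proteins that bind these collagens, 5 were called higher and 9 lower at D5, and 6 higher and 4 lower at D10 (5 higher and 4 lower without D10 replicate 3). The list median was -0.40 at D5 and 0.12 at D10 on the log2 scale. Fmod, the small leucine-rich proteoglycan fibromodulin, fell to 121 ± 47.0 CPM at D5, against 997 ± 218 CPM in sorted control (log2 -3.04 ± 0.34, adjusted p = 0.000118). Tnc, the gene of tenascin C, rose at D5 (log2 2.42 ± 0.55, adjusted p = 0.00759) and at D10 (log2 2.15 ± 0.55, adjusted p = 0.0217), where its libraries overlapped with control and its log2 fold change was 1.04 (adjusted p = 0.107) without D10 replicate 3, with an adjusted p of 0.0788 without sorted control replicate 1 and 0.0729 without sorted control replicate 3. Fbln1, the gene of fibulin 1, rose at D10 to 941 ± 183 CPM, against 253 ± 69.9 CPM in sorted control (log2 1.90 ± 0.20, adjusted p = 0.000286; without D10 replicate 3, log2 1.83, adjusted p = 0.000796). Its D5 libraries already stood at 849, 782 and 915 CPM. Fn1, the fibronectin gene, was lower at D10 than at D5 (log2 -1.16 ± 0.19, adjusted p = 0.0361), a call likewise lost without D5 replicate 1 (0.1), 2 (0.087) or 3 (0.191) or D10 replicate 1 (0.212) or 2 (0.148).

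Of 16 genes of proteases that cut these collagens, 8 were called higher and 1 lower at D5, and 8 higher at D10 (7 without D10 replicate 3), with list medians of 1.17 and 1.11 on the log2 scale. Mmp12, macrophage elastase, had no count in the control libraries and averaged 6.86 ± 2.97 CPM at D5. Mmp3, stromelysin 1, averaged 42.6 ± 15.5 CPM at D5 and 62.8 ± 67.6 CPM at D10, against 0.245 ± 0.424 CPM in sorted control, and was not called by limma voom at either time. In edgeR it was called at both (adjusted p = 0.00412 at D5 and 0.00511 at D10, or 0.0143 at D10 without D10 replicate 3). Ctss, the gene of cathepsin S, averaged 88.1 ± 39.4 CPM at D10, against 3.19 ± 3.79 CPM in sorted control (log2 4.77 ± 0.63, adjusted p = 0.000842). Its log2 fold change was 4.48 without D10 replicate 3 (adjusted p = 0.0023) and 6.47 without sorted control replicate 3 (adjusted p = 0.000263).

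Among 17 genes of TGF-beta and profibrotic signalling, 7 were called higher and 2 lower at D5, with a list median of 0.50, and 5 higher and 1 lower at D10, with a median of 0.15. Without D10 replicate 3 the D10 calls were 2 higher and 0 lower. Ltbp2, a latent TGF-beta binding protein, rose at D5 (log2 2.66 ± 0.52, adjusted p = 0.00315) and at D10 (log2 2.00 ± 0.51, adjusted p = 0.0221), the D10 value being 0.88 without D10 replicate 3 (adjusted p = 0.08) and not passing without sorted control replicate 1 (0.0505), 3 (0.0706) or 4 (0.0772). Inhba, the activin A subunit gene, rose at D5 (log2 2.39 ± 0.64, adjusted p = 0.0174), which ended without sorted control replicate 1 (adjusted p = 0.0592), sorted control replicate 4 (0.076) or D5 replicate 3 (0.0616).

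Markers of other cells and states moved beside these changes. The summed level of 12 mural cell markers was 3071 to 6044 CPM in sorted control, 2332 to 4164 CPM at D5 and 1015 to 2073 CPM at D10, with 3 called higher and 3 lower at D5 and 7 lower at D10 (4 without D10 replicate 3). The sum hid opposite moves at D5. Rgs5 stood at 265 to 618 CPM in sorted control, 701 to 1368 CPM at D5 and 141 to 321 CPM at D10. Myh11 stood at 1218 to 2306 CPM in sorted control, 244 to 705 CPM at D5 and 240 to 697 CPM at D10. The 12 endothelial markers summed to 346 to 409 CPM, 619 to 756 CPM and 525 to 597 CPM in the same order, with 3 called higher at each time and 1 lower at D10 (2 higher and 1 lower without D10 replicate 3). Most of that sum was Cdh5, at 210 to 237 CPM in sorted control, 417 to 488 CPM at D5 and 373 to 422.5 CPM at D10, while Pecam1 never exceeded 7.24 CPM in a sorted library. The 16 leukocyte and microglia markers summed to 74.6 to 97.5 CPM, 196 to 358 CPM and 207 to 469 CPM, with 8 of 15 tested called higher at each time (7 at D10 without D10 replicate 3).

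Cell cycle markers (8 genes) summed to 63.8 to 95.4 CPM in sorted control, 376 to 380 CPM at D5 and 145 to 285 CPM at D10, with 7 called higher at D5 and 6 at D10 (3 without D10 replicate 3). Mki67, the Ki-67 gene, was at 47.0, 17.8 and 28.9 CPM in sorted control, 240, 242 and 234 CPM at D5, and 79.4, 83.3 and 162 CPM at D10. The 16 dissociation response genes summed to 12590 to 22560 CPM, 6397 to 12640 CPM and 7236 to 20610 CPM, with 5 lower and 1 higher at D5 and none called at D10 by edgeR or DESeq2 (1 higher by limma voom; at an unadjusted p under 0.05 in edgeR, 1 higher and 0 lower). The 10 fibroblast markers, which include Col1a1 and Col3a1, summed to 22590 to 29570 CPM, 35320 to 49810 CPM and 32140 to 68680 CPM, with 6 called higher and 3 lower at D5, and 5 higher and 1 lower at D10 (3 higher and 1 lower without D10 replicate 3). Col1a1, Col1a2 and Col3a1 made up most of this sum in every sorted library. Fbln1, Mgp and Pdgfrb lay above control in every D5 library, while Dcn, Lum and Pdgfra lay below it. Dcn, the decorin gene, stood at 5925 to 6954 CPM in sorted control, 2687 to 3986 CPM at D5 and 2913 to 4307 CPM at D10. Astrocyte markers (6 genes) summed to 636.5 to 692 CPM, 969 to 1076 CPM and 962 to 1009 CPM, Schwann cell markers (8) to 348 to 355 CPM, 237 to 438 CPM and 396 to 467 CPM, oligodendrocyte markers (8) to 56.9 to 75.6 CPM, 73.4 to 129 CPM and 88.5 to 115 CPM, and neuron markers (8) to 7.47 to 25.5 CPM, 18.1 to 24.9 CPM and 8.25 to 18.2 CPM. Most of the astrocyte sum was Slc1a3 (355 to 375.5 CPM in sorted control) and Gja1 (194 to 238.5 CPM). Of the 6 astrocyte markers, 3 were called higher and 1 lower at each time, also without D10 replicate 3. Aldh1l1 stood at 54.9 to 65.1 CPM in sorted control and 10.0 to 11.55 CPM at D5. Gfap stood at 5.07 to 9.19 CPM and 29.8 to 96.8 CPM in the same order. Several leukocyte, neuron, oligodendrocyte and cell cycle markers were at 0 counts in single sorted libraries, Cd3e among them in 2 control libraries, and no fibroblast, mural or endothelial marker was. The part of these cells and states in the collagen changes was not tested.

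In health, all 10 collagen genes were higher in sorted cells than in whole cord (26.9% of all genes tested were higher), and none was lower (28.7% of all genes were lower; also none at an unadjusted p under 0.05 in edgeR, against 30.9% of all genes, and none in DESeq2 or limma voom). This comparison asked how far the sort concentrated the RNA of these genes. Its CPM values are scaled within the 5 libraries and so differ slightly from those above. Col15a1 had 75 and 247 counts in the whole cord libraries, 9.21 and 22.9 CPM, and was 214-fold higher in sorted control (log2 7.74 ± 0.44). Col6a1 had 29 and 164 counts in whole cord and was 82.1-fold higher in sorted control (log2 6.36 ± 0.56). Whole cord replicate 3 held more of each of the 10 genes than replicate 1, and no sorted library overlapped with either (36.0% of all genes lay wholly higher in sorted control). Without whole cord replicate 1 the log2 fold change was 5.675 for Col6a1, 6.00 for Col6a2 and 7.22 for Col15a1, while leaving out whole cord replicate 3 gave 7.76 for Col6a1 and for Col6a2 and 8.53 for Col15a1. The folds of the other 7 genes moved by less than 1.5 times under every alternative run.

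The remaining folds of sorted control over whole cord were 98.3 for Col6a2, 62.6 for Col18a1, 53.4 for Col6a3, 35.9 for Col8a1, 25.2 for Col8a2, 11.6 for Col12a1, 10.6 for Col14a1 and 6.22 for Col16a1. Within whole cord, Col16a1 ranked first per kilobase (5.39 ± 2.19 CPM per kilobase, SD, n = 2), ahead of Col15a1 (3.10 ± 1.87) within their spread, whereas its rank in sorted control was 6. All 10 fibroblast markers and all 12 mural markers were higher in sorted control than in whole cord, while all 8 oligodendrocyte and all 8 neuron markers and 4 of 6 astrocyte markers were lower. All 22 tested binding partner genes, 9 of 11 fibrillar collagen genes and 15 of 15 tested dissociation response genes were also higher in the sorted cells. Sorting and dissociation were applied to 1 side of this comparison. The sides also differed in the reporter strain and in the pooling of cords. The effects of these differences and those of cell type cannot be told apart.

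**Figure D5:**
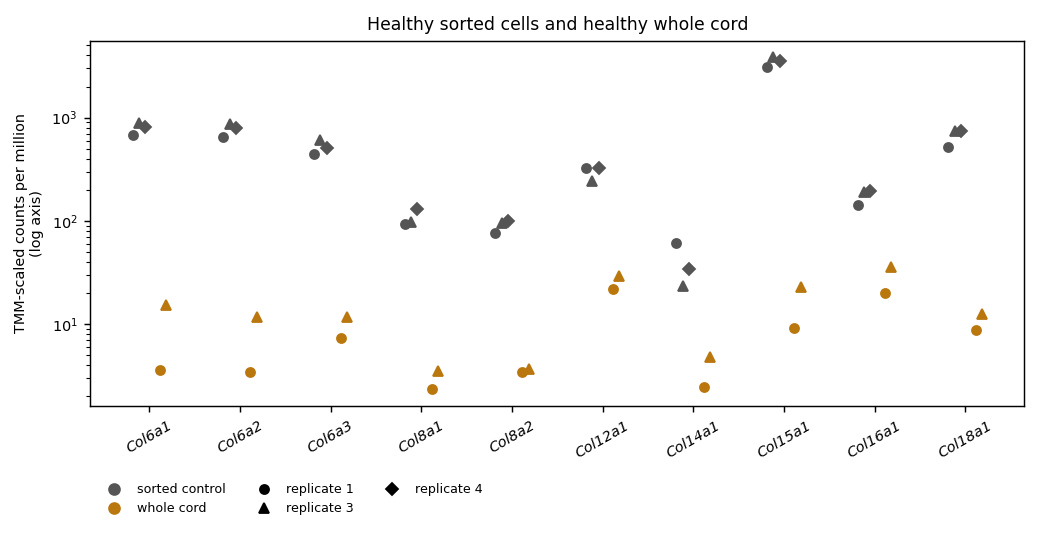
CPM (log axis, scaled within the 5 healthy libraries) of the 10 collagen genes in sorted control (left of each pair, 3 libraries) and whole cord (right, 2 libraries), with one symbol per replicate number. Col15a1 has the highest sorted control values and lies at 9.21 and 22.9 CPM in whole cord, and Col16a1 has the narrowest gap, with whole cord at or below 36.1 CPM.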

How the data were processed

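RNA-seq counts of 9 sorted and 2 whole cord libraries were analysed. Per the submitters' processing notes, the build was mm9 and the tools named, in no stated role, were HTSeq 0.6.1, DESeq2, SAMtools 0.1.19, Bowtie2 2.2.1 and TopHat2 2.0.11, and per the labels' protocols the reads were paired-end and came from dissociated, sorted cords. The labels of whole cord repeat that protocol, while the design text describes homogenate, which was followed. No source used here names the strand setting or annotation behind the counts. The authors deposited raw counts per gene, and 15 further value columns (their CPM and group means) were not used. A line of column totals was left out, and 24 symbols turned into dates were restored by identifier.

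Counts were tested with the edgeR quasi-likelihood test (edgeR 4.0.16, limma 3.58.1, DESeq2 1.42.0, R 4.3.3), with TMM scaling and filterByExpr by group. The 3 sorted groups entered 1 fit, and sorted control and whole cord another. P-values were adjusted by Benjamini-Hochberg over all genes tested, and genes were called under 0.05. The script was tested on simulated counts. Ratios of 8 pairs were tested by exact permutation of libraries. Levels between genes were divided by the length of the annotated GRCm38 transcript with the longest coding sequence (GENCODE M21). In each list of related genes the 2 largest called changes per comparison with at least 5 CPM in the higher group are named, beside Col1a1 and Mki67. A gene that this rule names is not reported here. Likeness used genes with a mean of at least 10 CPM and log2 CPM with a prior count of 2. The 10 genes, the lists and the tests were chosen with earlier results of these data known. Alternatives were other scaling, no filter, DESeq2, limma voom, all 11 libraries in 1 fit, a replicate block and leaving out each library. The fit of D5 without D10 replicate 3 was added after seeing the data. Replicate libraries of 1 group differed by more than sampling noise in all 4 groups.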

Additional observations from a re-analysis of the deposited data

How the results depend on the processing

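Of the log2 fold changes of the 10 genes under all alternatives, 125 of 130 at D5, 112 of 120 at D10, 105 of 120 between the times and 110 of 110 for sorted control against whole cord kept their direction and side of the threshold. The changes of sign were in small values, given here with the highest or lowest value when single libraries were left out. For D10 against control these were Col6a2 (-0.037, -0.018 and -0.044 without sorted control replicate 1, D10 replicate 1 and D10 replicate 3, up to 0.247), Col14a1 (-0.023 and -0.163 without sorted control replicate 3 and D10 replicate 3, up to 0.692) and Col12a1 (0.018 without D10 replicate 2 and 0.095 with the replicate block, down to -0.333). For D10 against D5 they were Col6a3 (-0.011 in limma voom, -0.05 and -0.259 without D5 replicate 2 and D10 replicate 3, up to 0.363), Col8a2 (-0.001 without D5 replicate 3, up to 0.382) and Col12a1 (-0.03 without D10 replicate 3, up to 0.308). The number of all genes called ranged from 2446 (without D5 replicate 3) to 3588 at D5, 1045 (without D10 replicate 3) to 2031 at D10, 1 (without D5 replicate 3) to 218 (without D10 replicate 3) between the times and 5973 (without whole cord replicate 1) to 10054 against whole cord when single libraries were left out, against 3817, 2136, 21 and 9208 with all libraries. Between the times DESeq2 called 175 genes, limma voom 33 and edgeR without a filter 265, where the members called were 2 higher in DESeq2, 1 higher in limma voom, and 2 higher and 1 lower without a filter. D5 with D10 replicate 3 out of the fit, added after seeing the data, gave 3990. With single libraries left out, members called ranged from 0 to 1 higher and 0 to 2 lower between the times. The cause of these shifts was not tested.

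Samples with the same replicate number correlated at -0.08 to 0.17 in their deviations from group means, and the numbers were not treated as pairs in the main fits. The labels do not say whether the numbers mark a shared batch, and so few libraries cannot exclude one. With the replicate block, 395 genes were called at D10, Col8a2 missed the threshold there (-1.42, adjusted p = 0.0589), leaving 0 members lower, and Col14a1 was called lower at D10 than at D5 (1 member).

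With single libraries left out, the D5 minus control log2 ratio ranged from -1.671 to -1.156 for Col12a1/Col1a1 (adjusted p 0.0286 to 0.0524), 0.264 to 1.257 for Col14a1/Col1a1 (0.0143 to 0.125), -0.926 to -0.577 for Col16a1/Col1a1 (0.0524 to 0.196), 1.464 to 1.67 for Col6a3/Col6a1 (0.0143 to 0.0571) and -0.189 to -0.155 for Col6a2/Col6a1 (0.0143 to 0.157). The other 3 ratios passed in every case. Of the named list genes, 444 of 491 values kept their call and 47 lost it. With 3 libraries a group and 2 of whole cord, small differences could not be resolved.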

Other observations

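Other chains of the collagen superfamily were called in both directions. Of 21 other non-fibrillar chains tested, 3 were called higher and 4 lower at D5 (13.2% and 10.7% of all genes), and 6 higher and 1 lower at D10 (8.38% and 4.99% of all genes; 4 higher and 1 lower without D10 replicate 3). Col7a1, the gene of the anchoring fibril collagen VII, averaged 389 ± 207 CPM at D5 and 433 ± 287 CPM at D10, against 11.2 ± 3.52 CPM in sorted control (SD, n = 3 each). Its log2 fold change was 5.11 ± 0.61 at D5 (edgeR, adjusted p = 0.000157) and 5.27 ± 0.61 at D10 (adjusted p = 0.000381), and 4.80 at D10 without D10 replicate 3 (adjusted p = 0.000804). Col9a2, a chain of the FACIT collagen IX of cartilage, fell at D5 to 18.6 ± 9.74 CPM, against 208 ± 57.3 CPM in sorted control (log2 -3.48 ± 0.48, adjusted p = 0.000362), and at D10 (log2 -2.21 ± 0.45, adjusted p = 0.00703). The D10 value of Col9a2 was -1.89 without D10 replicate 3 (adjusted p = 0.0218) and -2.835 without D10 replicate 2 (adjusted p = 0.00185).

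Of the 11 fibrillar chains, 6 were called higher and 1 lower at D5, and 6 higher at D10 (4 without D10 replicate 3). Col2a1, the main collagen gene of cartilage, fell to 9.80 ± 5.35 CPM at D5, against 117 ± 26.4 CPM in sorted control (log2 -3.57 ± 0.37, adjusted p = 8.1e-05), and stood at 74.0 ± 27.7 CPM at D10, higher than at D5 (log2 2.91 ± 0.36, adjusted p = 0.0159; 0.108 without D5 replicate 3). Col4a5, a basement membrane chain, averaged 625.5 ± 168 CPM at D10, against 252.5 ± 14.4 CPM at D5 (log2 1.31 ± 0.18, adjusted p = 0.017), and Col26a1 35.8 ± 9.57 CPM at D10, against 11.2 ± 1.21 CPM at D5 (log2 1.68 ± 0.22, adjusted p = 0.017). The calls of Col4a5 and Col26a1 between the times were lost without single libraries, with adjusted p up to 0.114 for Col4a5 and 0.108 for Col26a1, both without D5 replicate 3. Col5a2, a fibril-initiating chain, rose at D5 (log2 1.54 ± 0.28, adjusted p = 0.00198), and Col5a1, its partner, rose at D10 (log2 1.31 ± 0.27, adjusted p = 0.00829; 0.895 without D10 replicate 3, adjusted p = 0.0232). Each is named only where it was among the 2 largest called changes of its list, and a difference in timing between them was not tested. In health, Col4a6 was 63.3-fold and Col3a1 142-fold higher in sorted control than in whole cord (for Col3a1, log2 7.15, or 6.55 and 8.12 without whole cord replicate 1 and 3). Col19a1 was lower, at 0.0641 ± 0.111 CPM in sorted control, against 8.65 ± 1.65 CPM in whole cord (SD, n = 3 and 2; edgeR, adjusted p = 0.000495).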
